A study of Homo sapiens with 6 samples.

Results

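The genes described are 10 genes of transforming growth factor beta (TGF-beta) signalling: the ligand genes TGFB1 and TGFB2, the receptor genes TGFBR1 and TGFBR2, the signal transducer genes SMAD2, SMAD3, SMAD4 and SMAD7, and the repressor genes TGIF1 and TGIF2. They were taken by name from a table of 67140 Ensembl gene identifiers. All 10 passed the filter on low counts, with 20786 genes tested in all. The set was chosen by its measured levels in SIRT4 and control libraries, in particular by TGIF2 being about 3-fold higher, so the values of the 10 genes in that comparison are a description and carry no p-value. RNA-seq was performed on total RNA of CAPAN-2, an established human pancreatic cancer cell line, in 3 libraries of cells labelled SIRT4 overexpression and 3 libraries of control cells without it. SIRT4 is a mitochondrial sirtuin. All libraries share the 1 cell line, and neither the vector nor the duration of overexpression or the culture conditions are stated in the labels. Whether replicates came from separate cultures is not labelled, so a p-value reflects no more than the scatter among these libraries, possibly a technical one.

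TGF-beta ligands bind the type II receptor, which recruits and phosphorylates the type I receptor kinase. The type I receptor then phosphorylates SMAD2 and SMAD3, which join SMAD4 and enter the nucleus to regulate genes, while SMAD7 is induced by the pathway and inhibits the receptor. TGIF1 and TGIF2 are homeodomain proteins of the TALE class that bind SMAD complexes and recruit histone deacetylases, so that they repress transcription driven by SMADs. In pancreatic epithelium the pathway is known as a growth-restraining one that carcinomas often disable.

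The upstream sequences of TGIF2, TGFB2, TGFBR2 and SMAD3 are shown because these 4 of the 10 genes had the largest absolute log2 fold changes, as a description. Each is the 250 bases before the most upstream start site in RefSeq on GRCh38.p14, written 5′ to 3′ along the strand of the gene, which is the plus strand for all 4. Capitals mark matches, on either strand, to the SMAD half-site CAGAC, the SMAD palindrome GTCTAGAC, the TGIF core TGTCA, the E2F motif TTTCCCGC and the AP-1 motif TGACTCA, none of which contains another.
TGIF2, chr20:36573214-36573463: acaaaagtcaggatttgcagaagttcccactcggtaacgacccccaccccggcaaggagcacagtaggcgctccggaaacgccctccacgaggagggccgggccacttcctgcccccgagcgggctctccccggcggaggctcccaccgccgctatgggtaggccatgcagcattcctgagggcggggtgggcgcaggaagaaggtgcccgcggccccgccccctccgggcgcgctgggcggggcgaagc
TGFB2, chr1:218345086-218345335: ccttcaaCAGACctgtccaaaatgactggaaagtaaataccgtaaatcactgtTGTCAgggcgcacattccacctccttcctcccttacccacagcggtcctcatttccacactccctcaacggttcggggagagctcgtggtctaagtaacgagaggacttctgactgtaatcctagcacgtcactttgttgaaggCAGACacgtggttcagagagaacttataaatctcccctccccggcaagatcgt
TGFBR2, chr3:30606106-30606355: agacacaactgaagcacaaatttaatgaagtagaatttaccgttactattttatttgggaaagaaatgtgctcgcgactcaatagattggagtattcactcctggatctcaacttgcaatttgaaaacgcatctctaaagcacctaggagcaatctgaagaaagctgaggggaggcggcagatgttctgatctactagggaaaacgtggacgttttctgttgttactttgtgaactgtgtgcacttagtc
SMAD3, chr15:67065352-67065601: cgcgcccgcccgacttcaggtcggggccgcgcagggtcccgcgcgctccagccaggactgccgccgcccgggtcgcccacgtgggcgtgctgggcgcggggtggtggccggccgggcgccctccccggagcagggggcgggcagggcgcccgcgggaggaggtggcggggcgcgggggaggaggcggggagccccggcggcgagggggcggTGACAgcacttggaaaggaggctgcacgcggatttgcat

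In GENCODE release 29 the SMAD3 window lies inside the gene, after its annotated start and outside its exons, while the other 3 windows lie before the annotated starts of their genes. The TGIF2 window held no match to any of the 5 motifs, and neither did that of TGFBR2. The TGFB2 window held 2 CAGAC matches and 1 TGTCA match, and the SMAD3 window held 1 TGTCA match. Among 27324 windows of the same length, 1 for each gene, CAGAC was present in 37.9%, TGTCA in 34.6%, TGACTCA in 4.15%, TTTCCCGC in 1.42% and GTCTAGAC in 0.183%. The GC content was 71.2% in the TGIF2 window and 80.8% in that of SMAD3, against 50.4% for TGFB2 and 40.8% for TGFBR2, with a median of 57.6% over all windows. The antisense gene DLGAP4-AS1, which runs in the opposite direction, begins 73 bases before the TGIF2 start site and covers 178 bases of the TGIF2 window.

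Library totals ran from 51999089 to 65156041 estimated counts in SIRT4 libraries and from 50945991 to 57626801 in control libraries. Levels are given as CPM, counts per 1000000 of the TMM-scaled library size, and differences as log2 fold changes fitted by edgeR, SIRT4 minus control. SIRT4 itself stood at 3.23 ± 0.41 CPM in SIRT4 libraries and 2.08 ± 0.34 CPM in control libraries (SD, n = 3 each), a log2 fold change of 0.63 (SE 0.21) with an edgeR adjusted p of 0.0752, which is not past the threshold of 0.05. The 8 ductal epithelial markers summed to 4507 to 4651 CPM in SIRT4 libraries and 2416 to 2536 CPM in control libraries, of which 3 rose (KRT8, KRT18 and KRT19), 1 fell (SOX9) and 4 did not pass. Within that list KRT7, a keratin of ductal epithelium, was at 7.68 to 10.1 CPM in SIRT4 libraries and 4.02 to 8.73 CPM in control libraries. The 10 fibroblast markers summed to 190 to 196 and 185 to 204 CPM and none of 5 tested changed, with COL1A2, DCN and FAP listed at 0. Most of that sum was COL1A1, at 166 to 172 CPM in SIRT4 and 167 to 181 CPM in control libraries, and 5 of the 10 averaged under 1 CPM. The 7 leukocyte markers summed to 37.0 to 47.1 and 61.2 to 91.5 CPM, and of 3 tested CD68 fell and CD14 and CSF1R did not pass. CD14 was at 2.78 to 3.83 CPM in SIRT4 libraries and 2.00 to 2.75 CPM in control libraries, with a log2 fold change of 0.58, so the lower sum was that of CD68. CD3E was listed at 0, and PTPRC did not exceed 0.0519 CPM in SIRT4 and 0.0970 CPM in control libraries. The CD68 call had an edgeR adjusted p of 0.0178, and of 0.052 without SIRT4 replicate 2 and 0.0558 without control replicate 1. The 5 endothelial markers summed to at most 1.44 CPM in SIRT4 and 0.638 CPM in control libraries. All libraries are of the same cell line, and in its bulk RNA fewer cells expressing a marker and less of its RNA per cell cannot be told apart. The part of these markers in the results below was not tested.

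TGIF2 (ENSG00000118707; GRCh38 chromosome 20, 36573488 to 36593950, plus strand), the smaller of the TGIF repressors, was higher in all 3 SIRT4 libraries. It stood at 23.6, 38.9 and 37.0 CPM in SIRT4 replicates 1, 2 and 3, and at 8.55, 8.42 and 12.4 CPM in control replicates 1, 2 and 3. The groups did not overlap, with SIRT4 replicate 1 the lowest of its group and control replicate 3 the highest of its own. The means were 33.2 ± 8.3 CPM in SIRT4 libraries and 9.78 ± 2.2 CPM in control libraries (SD, n = 3 each), a ratio of 3.39 and a log2 fold change of 1.76 (SE 0.24). Of the 20786 genes tested, 128 had a larger log2 fold change. Leaving out each library in turn gave log2 fold changes from 1.63 to 1.97. TGIF1 (ENSG00000177426; chromosome 18, 3411608 to 3459978, plus strand), which encodes the related repressor, was lower on average, within the spread. Its levels were 80.2, 79.5 and 82.9 CPM in SIRT4 libraries and 84.0, 101 and 79.4 CPM in control libraries, with a log2 fold change of -0.12 (SE 0.09). The TGIF1 groups overlapped, and control replicate 2 was the highest library.

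**Figure D1:**
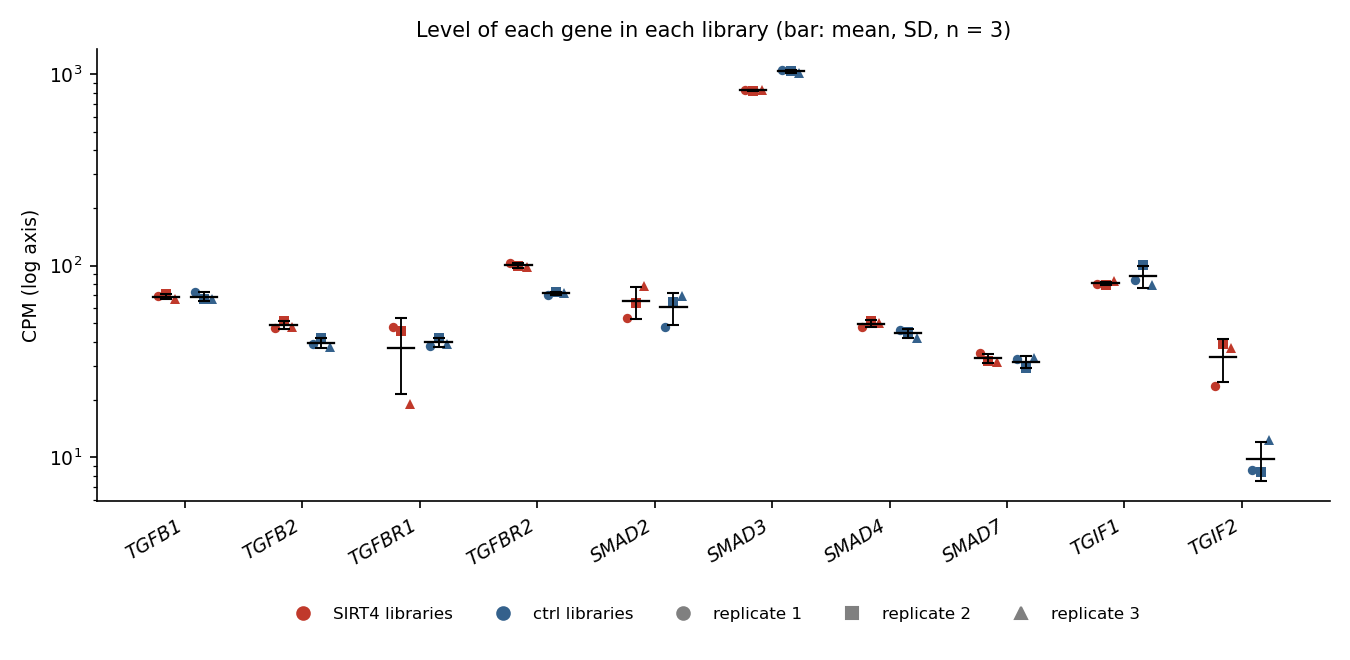
CPM of the 10 genes in each library on a log axis, SIRT4 libraries in red and control libraries in blue, with the marker shape giving the replicate and bars the mean and SD (n = 3). TGIF2 lies at 23.6 CPM or more in SIRT4 libraries and 12.4 CPM or less in control libraries, while TGFBR1 in SIRT4 replicate 3 lies apart at 19.0 CPM.

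TGIF2 shares part of its locus with a read-through gene. The read-through gene TGIF2-RAB5IF (chromosome 20, 36574553 to 36612384) joins TGIF2 to RAB5IF, which encodes a small protein that interacts with RAB5, and 308 exon bases of TGIF2, 8.14% of its exon sequence, also belong to the read-through gene. TGIF2-RAB5IF was scarce, with estimated counts of 16, 1 and 7 in SIRT4 libraries and 34, 17 and 25 in control libraries. It made up 1.03%, 0.0499% and 0.326% of the CPM of both genes together in SIRT4 libraries, and 6.38%, 3.77% and 3.36% in control libraries. These shares fall as TGIF2 rises, since TGIF2 is part of the sum, and also as the read-through gene falls. The read-through CPM was lower in every SIRT4 library than in any control library. The read-through gene itself had a log2 fold change of -1.75 (SE 0.79) and did not pass (edgeR adjusted p = 0.179). How reads from the shared exon bases were assigned is not known. Summed before the fit, TGIF2 and TGIF2-RAB5IF gave a log2 fold change of 1.70. RAB5IF stood at 55.8, 54.8 and 47.9 CPM in SIRT4 libraries and 44.4, 44.3 and 45.3 CPM in control libraries, with a log2 fold change of 0.24 (SE 0.07) and an edgeR adjusted p of 0.0602. With RAB5IF, a separate gene, included, the sum over the locus had a log2 fold change of 0.65 (SE 0.08), since RAB5IF supplied most of that sum.

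Apart from the read-through gene, the genes around TGIF2 had smaller fold changes than TGIF2. Of 7 other tested genes with a start coordinate within 250 kb, DSN1, a kinetochore gene, rose by 0.41 on the log2 scale (edgeR adjusted p = 0.0123) and SOGA1 by 0.31 (edgeR adjusted p = 0.00742). The others did not pass. MYL9, a myosin light chain gene upstream of TGIF2, had a log2 fold change of 0.06, and DLGAP4-AS1 one of 0.10 with at most 0.835 CPM in SIRT4 and 0.698 CPM in control libraries. NDRG3 varied within both groups, at 50.2, 78.1 and 82.4 CPM in SIRT4 libraries and 67.0, 39.2 and 36.9 CPM in control libraries. These groups overlapped (log2 fold change 0.56, SE 0.32, edgeR adjusted p = 0.325).

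**Figure D2:**
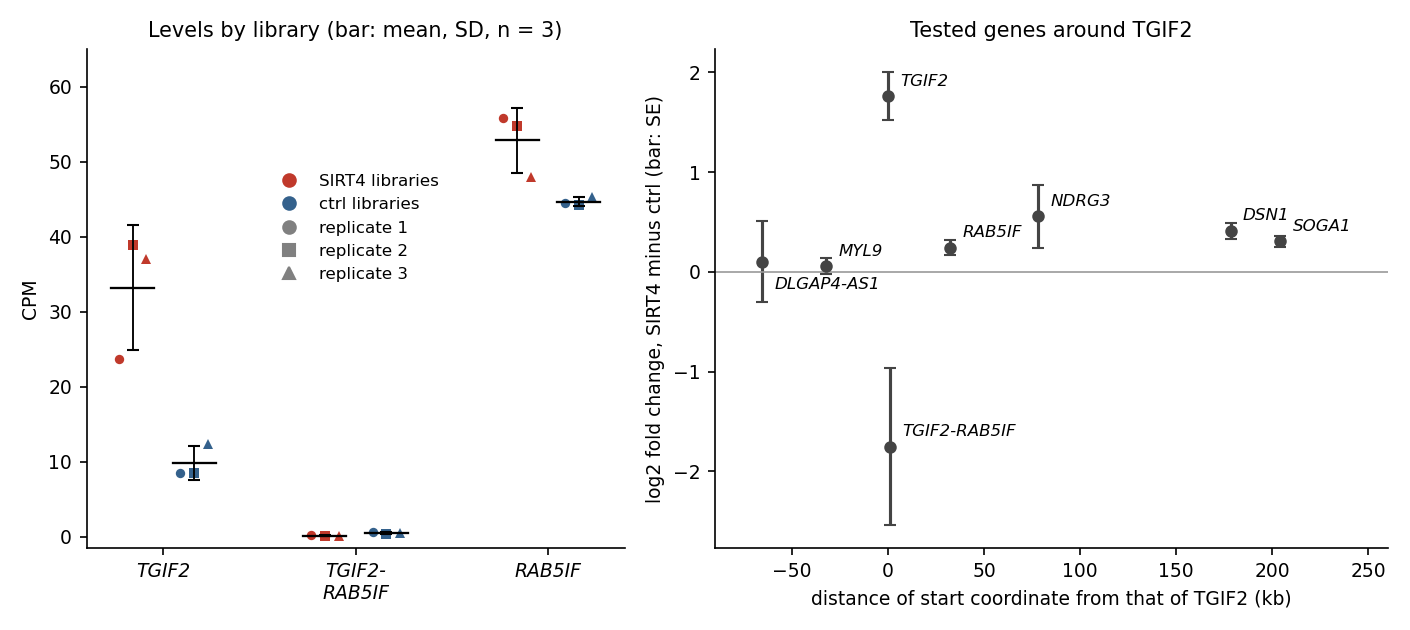
Left, CPM of TGIF2, the read-through gene TGIF2-RAB5IF and RAB5IF in each library, with the mean and SD (n = 3), SIRT4 libraries in red and control libraries in blue. Right, fitted log2 fold change with its SE for TGIF2 and the 7 tested genes around it against the distance of the start coordinates in kb. TGIF2 stands at 1.76, MYL9 at 0.06, RAB5IF at 0.24 and the scarce read-through gene at -1.75.

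A further 5 genes were chosen as the most like TGIF2 among 15417 genes at 1 CPM or more, by the Euclidean distance of log2 CPM, each minus its own mean, over the 6 libraries. They were MUC12-AS1, AGR2, KCTD20, GARIN2 and LXN, with distances of 0.596, 0.603, 0.665, 0.691 and 0.697 log2 units. AGR2 encodes an endoplasmic reticulum protein of mucus-secreting epithelia. It was at 159, 164 and 165 CPM in SIRT4 libraries and 48.7, 51.1 and 58.1 CPM in control libraries. Since the distance is set mainly by the difference between the groups, these genes were high in SIRT4 libraries by construction.

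Of the ligand genes, TGFB1 overlapped between the groups and TGFB2 was higher in SIRT4 libraries. TGFB1 (ENSG00000105329; chromosome 19, 41301587 to 41353911, minus strand) encodes the founding ligand of the family. It stood at 69.1, 71.1 and 66.9 CPM in SIRT4 libraries and 73.3, 66.7 and 67.0 CPM in control libraries. The groups overlapped, with means of 69.0 ± 2.1 and 69.0 ± 3.7 CPM (SD, n = 3 each). On the opposite strand, 215 exon bases of TGFB1 are shared with HNRNPUL1, 6.64% of its exon sequence. With the strand setting not given, reads from these bases cannot be told apart. HNRNPUL1 was more abundant, at 259, 285 and 255 CPM in SIRT4 libraries and 183, 212 and 204 CPM in control libraries. Its part in the TGFB1 values was not tested. TGFB2 (ENSG00000092969; chromosome 1, 218346235 to 218444619, plus strand) encodes a second ligand that binds the type II receptor efficiently only with a co-receptor. It was at 47.1, 51.5 and 47.9 CPM in SIRT4 libraries and 38.9, 42.1 and 37.9 CPM in control libraries. Every SIRT4 library was above every control library, with a log2 fold change of 0.30 (SE 0.07). Of its exon sequence, 26.6% also belongs to TGFB2-OT1 on the same strand, a gene at no more than 0.466 CPM in SIRT4 and 0.411 CPM in control libraries.

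The receptor genes behaved differently from each other. TGFBR2 (ENSG00000163513; chromosome 3, 30606502 to 30694142, plus strand) encodes the type II receptor that binds ligand. It was at 104, 99.3 and 98.5 CPM in SIRT4 libraries and 70.6, 73.2 and 72.3 CPM in control libraries. The groups stood well apart, with a ratio of means of 1.40 and a log2 fold change of 0.48 (SE 0.05). TGFBR1 (ENSG00000106799; chromosome 9, 99104038 to 99154192, plus strand) encodes the type I receptor kinase. It was at 47.6, 45.6 and 19.0 CPM in SIRT4 libraries and 38.2, 42.0 and 39.0 CPM in control libraries. Replicates 1 and 2 of SIRT4 were above every control library and replicate 3 was below them all, so the spread was 42.7% of the mean in SIRT4 libraries and 4.98% in control libraries. The log2 fold change was -0.09 (SE 0.36) over all 6 libraries and 0.24 (SE 0.08) without SIRT4 replicate 3.

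Among the SMAD genes, SMAD3 was lower in SIRT4 libraries. SMAD3 (ENSG00000166949; chromosome 15, 67063763 to 67195195, plus strand), a receptor-activated SMAD that binds DNA directly, stood at 822, 817 and 828 CPM in SIRT4 libraries and 1046, 1043 and 1009 CPM in control libraries. The SIRT4 libraries lay within a narrow range and all were below the control libraries, with a ratio of means of 0.796 and a log2 fold change of -0.33 (SE 0.03). SMAD2 (ENSG00000175387; chromosome 18, 47808957 to 47931146, minus strand), the other receptor-activated SMAD of this branch, was at 53.5, 64.1 and 78.4 CPM in SIRT4 libraries and 47.6, 64.8 and 69.7 CPM in control libraries. The groups overlapped along most of their range, and in both the library numbered 1 was the lowest and the library numbered 3 the highest (log2 fold change 0.11, SE 0.19). Without SIRT4 replicate 3 the SMAD2 log2 fold change was -0.04, and without control replicate 1 it was also -0.04.

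SMAD4 (ENSG00000141646; chromosome 18, 51028394 to 51085045, plus strand) encodes the common partner of the receptor-activated SMADs and is often lost in pancreatic carcinoma. It was detected in every library, at 47.6, 51.5 and 50.4 CPM in SIRT4 libraries and 46.2, 45.1 and 41.8 CPM in control libraries. The SIRT4 libraries were all above the control libraries, by less than 2 CPM at the nearest values, with a log2 fold change of 0.17 (SE 0.07). SMAD7 (ENSG00000101665; chromosome 18, 48919853 to 48952052, minus strand), the inhibitory SMAD that TGF-beta itself induces, was at 35.0, 31.8 and 31.6 CPM in SIRT4 libraries and 32.7, 29.1 and 32.9 CPM in control libraries. The SMAD7 groups overlapped, and its log2 fold change was 0.06 (SE 0.08).

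Counted together, 3 of the 10 genes (TGFB2, TGFBR2 and TGIF2) were past the edgeR threshold and higher, 1 (SMAD3) was past it and lower, and 6 did not pass. Over all genes tested, 9.38% were called higher and 7.67% lower, or 17.1% in either direction. The groups did not overlap for 4 of the 10 with SIRT4 above and for 1 with SIRT4 below, where 18.6% and 19.0% of all tested genes stood so, or 37.6% in all. The median log2 fold change was 0.08 over the 10 genes and -0.02 over all tested genes. Since the genes were chosen with these values known, nothing is read from these counts. The TGFB2 call was lost without SIRT4 replicate 2 or 3 or without control replicate 1 or 3, which left a count of 3.

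Levels can be compared between genes only per length. Divided by the length of the longest principal transcript in GENCODE release 29, SMAD3 was first with 132 ± 0.93 CPM per kb in SIRT4 libraries and 165 ± 3.3 in control libraries (SD, n = 3 each). TGIF1 was the second at 39.0 ± 0.87 and 42.4 ± 5.4 CPM per kb, and TGFB1 the third at 24.9 ± 0.77 and 24.9 ± 1.3. TGFBR2 followed at 21.7 ± 0.60 CPM per kb in SIRT4 libraries and 15.6 ± 0.29 in control libraries. TGIF2 was in place 6 of 10 in SIRT4 libraries, at 9.67 ± 2.4 CPM per kb beside 9.82 ± 0.47 for TGFB2, and in place 9 in control libraries, at 2.85 ± 0.66. The values of TGIF2 and TGFB2 in SIRT4 libraries lie within their spread. SMAD7 was at 7.41 ± 0.43 and 7.12 ± 0.48 CPM per kb, TGFBR1 at 5.74 ± 2.5 and 6.10 ± 0.30, and SMAD4 at 5.69 ± 0.23 and 5.06 ± 0.26, so that in SIRT4 libraries TGFBR1 was within its spread of both neighbours. SMAD2 was the lowest at 1.89 ± 0.36 and 1.76 ± 0.34 CPM per kb, for a principal transcript annotated at 34526 bases. That place rests on this length, as the next longest, that of SMAD4, has 8769 bases. Before the division SMAD2 had means of 65.3 CPM in SIRT4 and 60.7 CPM in control libraries, above SMAD4 at 49.9 and 44.4 CPM. Over the union of all annotated exons SMAD3 stayed first and TGIF2 in the same places, but TGIF1 came in place 4 and stood at 9.84 and 10.7 CPM per kb, since its annotated exons span 8222 bases against 2076 in the principal transcript.

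**Figure D3:**
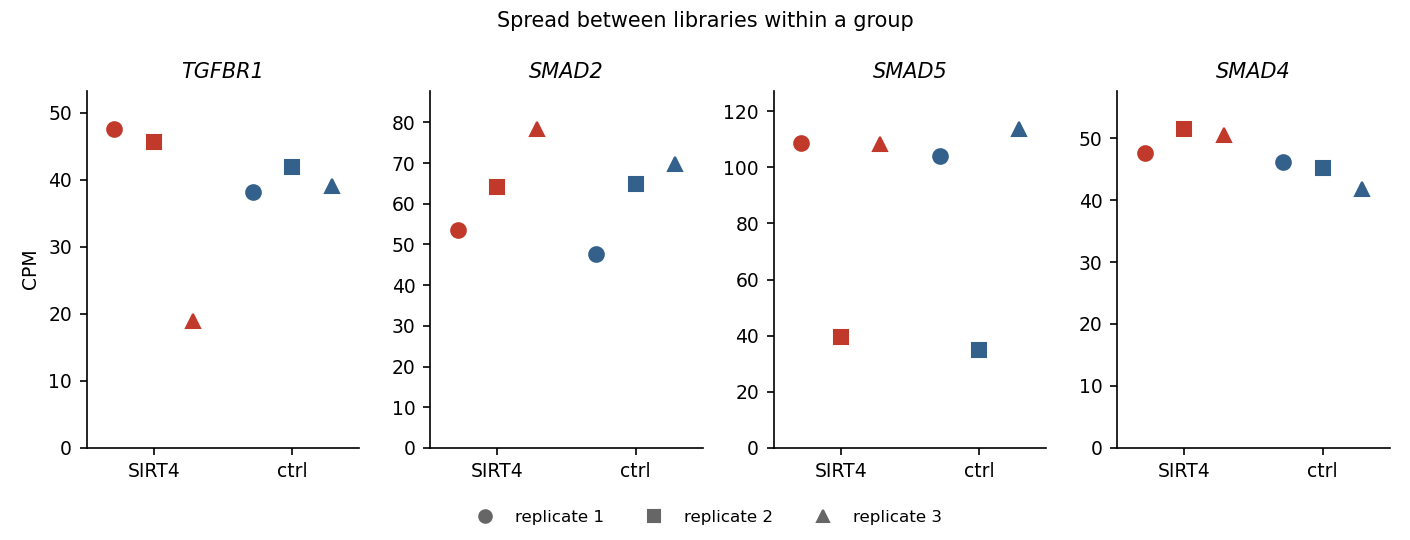
CPM of TGFBR1, SMAD2, SMAD5 and SMAD4 in each library, SIRT4 libraries in red on the left and control libraries in blue on the right, with the marker shape giving the replicate. TGFBR1 falls to 19.0 CPM in SIRT4 replicate 3, and SMAD5 is at 39.6 and 34.8 CPM in the replicates numbered 2, against 103.9 CPM or more elsewhere.

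The rest of the pathway was read from 8 lists of ligands, receptors, regulators and targets, which hold 117 genes beside the 10. Of the 106 tested, 18 rose, 11 fell and 77 did not pass, with a median log2 fold change of 0.06. The groups did not overlap for 54 of the 106. These lists were also chosen with earlier results of these data known, so their counts stand beside the 17.1% of all tested genes called and the 37.6% without overlap, and no claim is made that the pathway differs from other genes.

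Of the remaining SMAD genes SMAD6 rose. SMAD6, the inhibitory SMAD of the bone morphogenetic protein (BMP) branch, was at 29.4, 30.2 and 30.2 CPM in SIRT4 libraries and 16.7, 17.5 and 16.4 CPM in control libraries. It rose by 0.83 on the log2 scale (SE 0.08, edgeR adjusted p = 0.000352). The BMP-activated SMAD1 (log2 fold change 0.27, edgeR adjusted p = 0.123) and SMAD9 (0.04, edgeR adjusted p = 0.89) did not pass. SMAD5, also of the BMP branch, was at 109, 39.6 and 108 CPM in SIRT4 libraries and 104, 34.8 and 114 CPM in control libraries, so that replicate 2 was low in both groups (log2 fold change 0.02, SE 0.60). Of the 4, 1 rose and 3 did not pass.

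Ligands of the wider family moved in both directions. Of 17 listed, 14 were tested, 3 rose and 2 fell, with a median log2 fold change of 0.06. BMP6 was at 59.8, 65.6 and 72.1 CPM in SIRT4 libraries and 149.8, 140.1 and 153 CPM in control libraries, and fell by 1.17 on the log2 scale (SE 0.08, edgeR adjusted p = 6.98e-05). BMP5, another ligand of the BMP branch, was at 15.6, 13.3 and 14.3 CPM in SIRT4 libraries and 4.47, 6.58 and 6.51 CPM in control libraries, and rose by 1.30 (SE 0.17, edgeR adjusted p = 0.00183). INHBB, the activin and inhibin beta B chain, whose activin signals through SMAD2 and SMAD3, rose by 0.68 (74.0 ± 4.9 and 46.3 ± 1.3 CPM in SIRT4 and control libraries, SD, n = 3 each; edgeR adjusted p = 0.000505). GDF15, a divergent member secreted under stress, fell by 0.92 (edgeR adjusted p = 4.24e-05), and GDF11, singled out only once its value was known, rose by 0.40 (edgeR adjusted p = 0.0191). Without SIRT4 replicate 3 or control replicate 1 or 2, 2 ligands were higher. BMP5 and INHBB passed under every setting, so it was the GDF11 call that was lost there. The list thus held changes in both directions, BMP5 and BMP6 among them.

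Of 14 genes of ligand latency and release, 13 were tested, 2 rose and 1 fell, with a median log2 fold change of 0.08. LTBP1, which tethers latent TGF-beta to the matrix, rose by 0.30 (72.0 ± 2.2 and 58.5 ± 2.2 CPM in SIRT4 and control libraries, SD, n = 3 each; edgeR adjusted p = 0.0103). FURIN, the convertase that cleaves the ligand precursors, rose by 0.19 (edgeR adjusted p = 0.045). LTBP4, a related binding protein, fell by 0.44 (119 ± 9.6 and 162 ± 21.6 CPM in SIRT4 and control libraries, SD, n = 3 each; edgeR adjusted p = 0.0292). The calls other than LTBP1 were not firm. The edgeR adjusted p of FURIN was 0.143 without SIRT4 replicate 2, 0.0994 without SIRT4 replicate 3, and 0.122, 0.111 and 0.0695 without control replicates 1, 2 and 3. That of LTBP4 was 0.0974 and 0.0971 without SIRT4 replicates 2 and 3, and 0.0787 and 0.102 without control replicates 1 and 3. Without control replicate 2, 2 genes of the list were lower.

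Of 13 other receptors and co-receptors, 11 were tested, 2 rose and 1 fell, with a median log2 fold change of 0.10. BMPR2, the type II receptor of the BMP branch, was at 173, 171 and 177 CPM in SIRT4 libraries and 121, 132 and 123 CPM in control libraries, and rose by 0.47 (SE 0.05, edgeR adjusted p = 0.000652). Its type I partner gene BMPR1A rose by 0.28 (edgeR adjusted p = 0.0289), while ACVR1, another type I receptor gene, fell by 0.37 (edgeR adjusted p = 0.0151). The BMPR1A call was lost on leaving out any library but control replicate 2, with edgeR adjusted p-values of 0.0722, 0.0546 and 0.0793 without SIRT4 replicates 1, 2 and 3 and 0.0831 and 0.0894 without control replicates 1 and 3. ACVR1 had an edgeR adjusted p of 0.0511 without control replicate 3. Of 11 secreted antagonists, 8 were tested, 1 rose and none fell, with a median log2 fold change of -0.05, while 1 fell without SIRT4 replicate 1. TWSG1, which modulates BMP availability, rose by 0.44 (edgeR adjusted p = 0.00769). It stood at 63.1 ± 2.4 CPM in SIRT4 libraries and 46.6 ± 4.3 CPM in control libraries (SD, n = 3 each).

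The regulators of SMADs and receptors included both SMURF genes, which encode ubiquitin ligases that SMAD7 brings to the receptor. Of 19 tested, 4 rose and 3 fell, with a median log2 fold change of 0.07. SMURF2 was at 41.4 to 45.1 CPM in SIRT4 libraries and 60.9 to 66.0 CPM in control libraries, and fell by 0.55 (SE 0.06, edgeR adjusted p = 0.00115). SMURF1 was at 139, 139 and 142 CPM in SIRT4 libraries and 166, 167 and 172 CPM in control libraries, and fell by 0.27 (SE 0.04, edgeR adjusted p = 0.00424). In both the groups did not overlap. USP11, a deubiquitinase reported to act on the type I receptor, rose by 0.39 (edgeR adjusted p = 0.00111), and HGS, an endosomal sorting protein that aids receptor signalling, rose by 0.48 (edgeR adjusted p = 0.00453). Named after their values were seen, the other called genes were STUB1 and USP4, which rose by 0.30 and 0.44, and the phosphatase gene PPM1A, which fell by 0.25 (edgeR adjusted p = 0.0237). The list had 2 genes lower with the replicate block and on leaving out any library but control replicate 2. SMURF1 and SMURF2 passed under every setting, so it was the PPM1A call that was lost.

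Genes of nuclear cofactors included the deacetylases that TGIF proteins recruit. Of 16 tested, 4 rose and 1 fell, with a median log2 fold change of 0.14. HDAC1 was at 339, 339 and 319 CPM in SIRT4 libraries and 261, 279 and 286 CPM in control libraries, and rose by 0.27 (SE 0.05, edgeR adjusted p = 0.00832). HDAC2 was at 220, 237 and 225 CPM in SIRT4 libraries and 179, 180 and 192 CPM in control libraries, and rose by 0.31 (SE 0.05, edgeR adjusted p = 0.00504). Both groups of deacetylase values were free of overlap. The acetyltransferase gene EP300, whose product co-activates SMADs, rose by 0.25 (edgeR adjusted p = 0.0304). The co-repressor gene CTBP2, picked out once its value was known, rose by 0.19 (edgeR adjusted p = 0.0313). DRAP1, a repressor gene, fell by 0.44 (edgeR adjusted p = 0.00372). The EP300 call was lost on leaving out SIRT4 replicate 2 or 3 or any control replicate, at edgeR adjusted p-values of 0.0584, 0.082, 0.0892, 0.0658 and 0.0547. The list had 2 genes higher without SIRT4 replicate 2 or 3 or control replicate 3. HDAC1 and HDAC2 passed under every setting, so the CTBP2 call was lost there too. SKI and SKIL, co-repressors of SMADs, had log2 fold changes of 0.02 and -0.07 and did not pass.

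**Figure D4:**
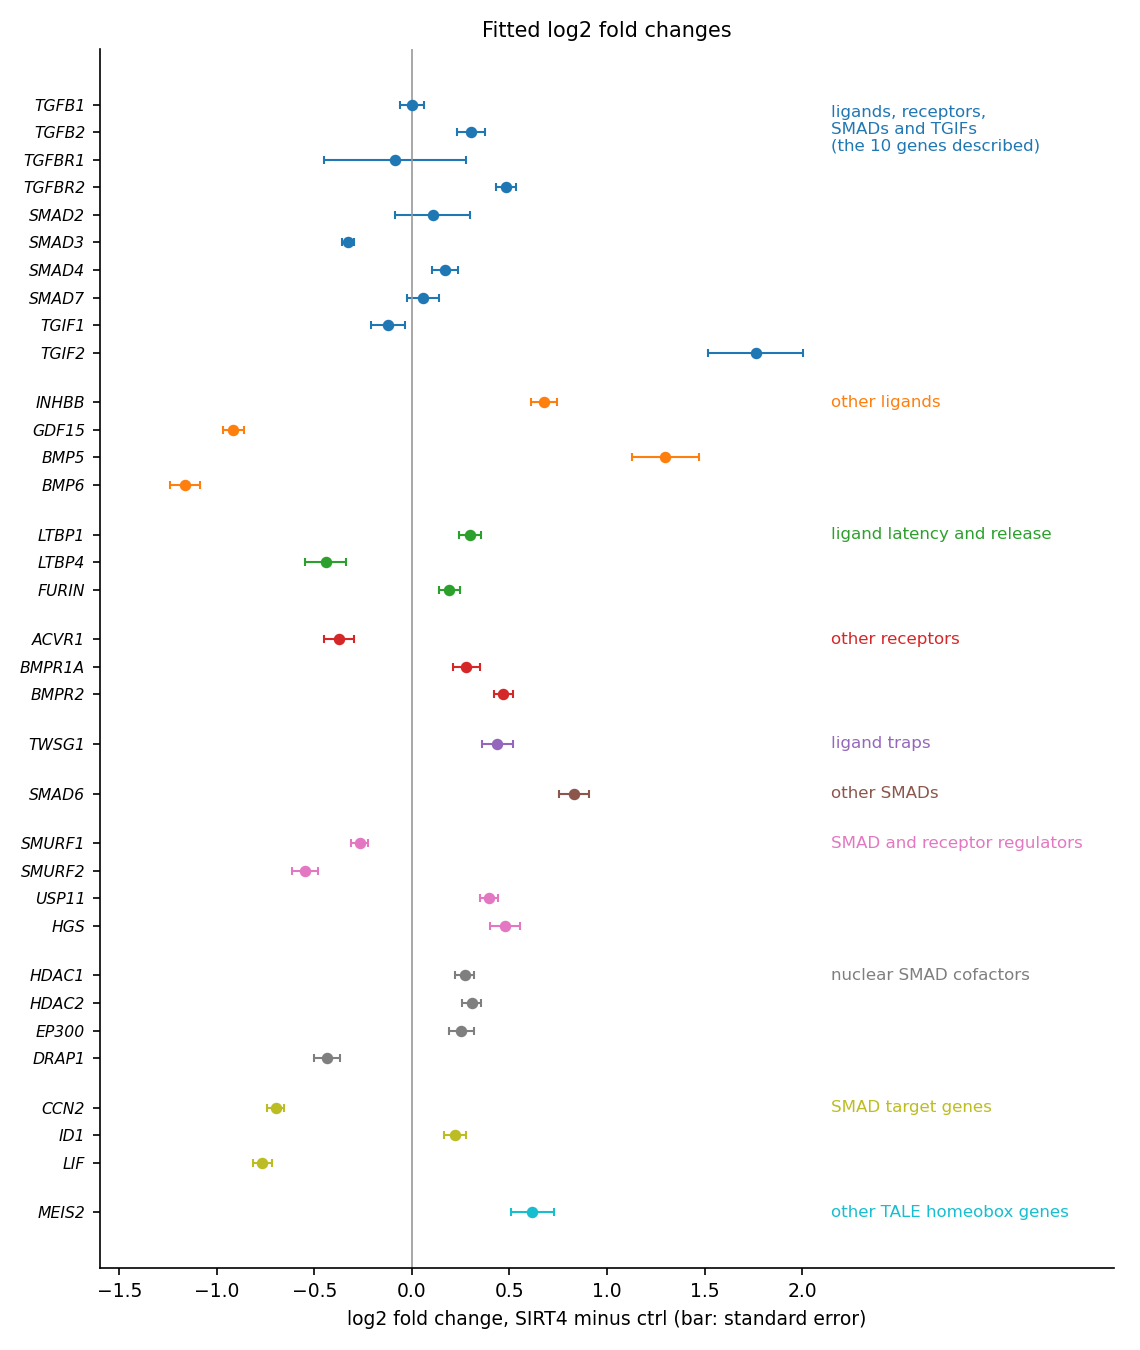
Fitted log2 fold changes (SIRT4 minus control) with standard errors for the 10 genes, in blue, and for the genes past the threshold that the text names from each other list by the rule, coloured by list. TGIF2 lies at 1.76, SMAD3 at -0.33 and BMP6 at -1.17.

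Among genes known to be induced through SMADs, most of those tested did not pass, and the only rise in the main fit was not firm. Of 30 listed, 28 were tested, 1 rose and 3 fell, with a median log2 fold change of 0.05. CCN2, a matricellular growth factor gene, was at 154 ± 3.9 CPM in SIRT4 libraries and 249.9 ± 3.0 CPM in control libraries (SD, n = 3 each), and fell by 0.70 (edgeR adjusted p = 4.59e-05). LIF, a cytokine gene, was at 93.5 ± 1.7 CPM in SIRT4 libraries and 159 ± 6.7 CPM in control libraries (SD, n = 3 each), and fell by 0.77 (edgeR adjusted p = 6.98e-05). Both are also targets of other pathways. ID1, a BMP-responsive inhibitor of transcription factors, rose by 0.22 with an edgeR adjusted p of 0.035, which was 0.0973 and 0.0986 without SIRT4 replicates 2 and 3 and 0.0868 and 0.108 without control replicates 2 and 3. Without control replicate 1, 2 targets were higher. PMEPA1 (log2 fold change 0.07) and the member of the 10 genes that is itself induced, SMAD7 (0.06), stood near 0.

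The other genes of the TALE homeobox class were compared with TGIF2. Of 16 listed, 12 were tested, 1 rose and none fell, with a median log2 fold change of 0.18. MEIS2 was at 11.3, 12.1 and 12.0 CPM in SIRT4 libraries and 7.14 to 8.0 CPM in control libraries, and rose by 0.62 (SE 0.11, edgeR adjusted p = 0.00752). PBX2 was at 68.8, 72.1 and 68.6 CPM in SIRT4 libraries and 65.8, 121 and 125 CPM in control libraries, so that control replicate 1 lay with the SIRT4 libraries. It had a log2 fold change of -0.58 (edgeR adjusted p = 0.212), which was -0.82 without control replicate 1 (edgeR adjusted p = 0.000641), and its adjusted p by the DESeq2 Wald test over all libraries was 0.0288. PBX3 and PBX4 had log2 fold changes of 0.12 and -0.33, PKNOX1 of 0.24, and MEIS1 and MEIS3 of 0.57 and -0.11. IRX3, IRX4, IRX5 and MKX had log2 fold changes of -0.24, -1.01, 0.39 and 1.65, with IRX4 and MKX at most at 0.544 CPM in SIRT4 and 1.24 CPM in control libraries. The value for MKX rests on 2, 0 and 12 estimated counts in control libraries, and was 1.09 without control replicate 2 and 3.71 without control replicate 3. None of these passed. PKNOX2, IRX1, IRX2 and IRX6 were not tested, the last 3 being listed at 0 in all libraries.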

How the data were processed

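Per the labels' protocols, total RNA was extracted with Trizol and made into libraries with an NEBNext Ultra RNA kit. The submitters' processing notes name STAR, featureCounts, Subread, DESeq2 and hg38, while roles, versions, annotation and strand setting are not stated there. The authors deposited whole numbers for 6 libraries, treated here as estimated counts because their low values do not fall steadily (in control replicate 1, 792 genes stood at 3 and 1278 at 4, 387 at 7 and 674 at 8), and how they were made is not known. The column name of SIRT4 replicate 2 ends in another letter than those of the other 5 libraries, with no meaning given. Rounding changed nothing. Symbols came from a table that matched 60357 of 67140 identifiers and from GENCODE release 29 for 296 more. Of the listed genes, CRIPTO was not matched.

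All 6 libraries were fitted in R 4.3.3 with edgeR 4.0.16 (filterByExpr, TMM, robust glmQLFit, glmQLFTest, no covariate) and called at a Benjamini-Hochberg adjusted p under 0.05 over 20786 genes. The SE is the absolute log2 fold change over the square root of F. The procedure was tested on simulated data. Other settings tried were library size only, DESeq2 size factors, dropping the filter or raising it (at least 10 counts in each of 3 libraries, mean at or over 1 CPM), limma-voom (limma 3.58.1), the Wald test of DESeq2 1.42.0, the replicate block, values divided by 4, leaving out each library, and summing the TGIF2 locus. The genes, lists and tests were chosen with earlier results of these data known. Named beside the 10 genes were SIRT4, the read-through locus, up to 4 called genes of each list by adjusted p (no overlap, and the higher group averaging 1 CPM or more), all of the SMAD and TALE lists, tested genes within 250 kb of TGIF2, and its 5 nearest genes by profile. Counts limit the precision of scarce genes. No library was left out. Some listed genes enter the counts but are not reported here by name.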

Additional observations from a re-analysis of the deposited data

How the results depend on the processing

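Of the 30 list and marker genes named by the rule and past the threshold, 23 stayed past it with the same sign under every alternative, and 7 lost it under at least 1. The count of genes lower in SIRT4 libraries, 1595, was 978 to 1204 on leaving out 1 library, at 978 when control replicate 3 was dropped, 1021 for SIRT4 replicate 2 and 1058 for SIRT4 replicate 3, each with fewer samples fitted. That of genes higher, 1950, was 1312 to 1570. Other pathway genes counted 12 to 17 higher, against 18, and 8 to 12 lower, against 11. The TGIF2 log2 fold change of 1.76 was 1.63 to 1.97 on leaving out 1 library and 1.73 to 1.77 under the other fits to its own row, and 0.65 with TGIF2, TGIF2-RAB5IF and RAB5IF summed, of which RAB5IF is the larger part.

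Deviations of libraries with equal replicate numbers correlated at 0.0096, 0.0032 and -0.018, so the numbers were not taken as pairs. With the replicate block, 1450 genes were higher and 1140 lower. Every SIRT4 library correlated best with control replicate 1, and every control library with SIRT4 replicate 1. The match between the libraries numbered 1 therefore says nothing on pairing. Among the genes named by the rule, the block lost the calls of BMPR1A, ID1 and FURIN. Within the same genes, library size only lost those of ID1 and FURIN, and limma-voom that of FURIN (adjusted p = 0.0577). By the DESeq2 Wald test 5 SMAD targets were lower, against 3, and 2 higher, against 1. That test called more genes in all, at 2485 higher and 2024 lower. The SMAD3 log2 fold change was -0.36 with library size only. Depth limits TGIF2-RAB5IF, at 1 to 34 estimated counts per library.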
